A study of Mus musculus with 6 samples.

Results

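The matrix metalloproteinases (Mmp genes), the secreted ADAMTS proteinases (Adamts), the ADAMTS-like glycoproteins that lack a catalytic domain (Adamtsl) and the tissue inhibitors of metalloproteinases (Timp) were examined in mouse samples of postnatal day 7 that are labelled as bladder epithelial cells. Members were all genes whose symbols follow these 4 names and that were measured by at least 1 probe set annotated to that gene alone. There were 42 of them among the 18193 genes measured in this way, namely 18 Mmp, 15 Adamts, 5 Adamtsl and 4 Timp genes, covered by 78 probe sets.

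RNA was measured on 6 Affymetrix Mouse Genome arrays after 2 rounds of amplification. There were 3 arrays of DsRed-positive cells and 3 of DsRed-negative cells, numbered 1, 2 and 5 in each group, and the titles call the groups uroplakin positive and negative. All samples carry the labels FVB/N x C57BL/6 for strain, male for sex and P7 for stage, and all name B6;129P-Upk1btm1Zhang/J as the gene reported, an allele of the uroplakin gene Upk1b. Both groups therefore share the same allele label, and the DsRed signal is the labelled difference between them. Beyond these titles, the labels give neither the promoter that drove DsRed nor the way the fractions were parted. Trypsin was used to lift the epithelium and an enzyme mixture to digest it to single cells, in both groups alike. The samples are labelled as unpooled, and no label ties each to an animal of its own, so the p-values describe only the spread among these samples, which may be technical.

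Metalloproteinases are zinc enzymes that are made as inactive precursors and that cut collagens, proteoglycans and other matrix and surface proteins outside the cell. Most are secreted and some are held in the membrane, and Timp proteins block them by binding the active site. ADAMTS enzymes act mainly on large proteoglycans such as versican, on procollagens and on other matrix glycoproteins, while ADAMTS-like proteins bind the fibrillin microfibrils of the matrix. In many tissues the stromal cells, leukocytes and vessels make most of these transcripts, whereas matrilysin (Mmp7) is known as an epithelial member.

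Most members with measurable signal were higher in DsRed-negative cells. Of the 42 genes, 32 were bright enough to be tested, and 18 of these were lower and 1 was higher in DsRed-positive cells by limma with Benjamini-Hochberg adjustment at 0.05. Of all 14222 tested genes, 11.3% were called lower and 9.21% higher. The other 13 tested members did not pass, and 0 of them had an unadjusted p under 0.05. The median log2 change (DsRed-positive minus DsRed-negative) was -2.92 over the 32 tested members and 0.04 over all tested genes. Without the filter on dim probe sets it was -1.10 over all 42 members and -0.01 over all 18193 genes. The filter kept genes by their mean over all 6 arrays, so a gene that is bright in 1 group alone could pass through that group, and the counts describe these genes and support nothing more. With the values as deposited the median of all genes shifted to -0.17 and under median centring to 0.37. The member median stood -2.96 from that of all genes after quantile normalization and -2.83 from it with either alternative, and 18 members were lower under all 3 scalings.

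**Figure D1:**
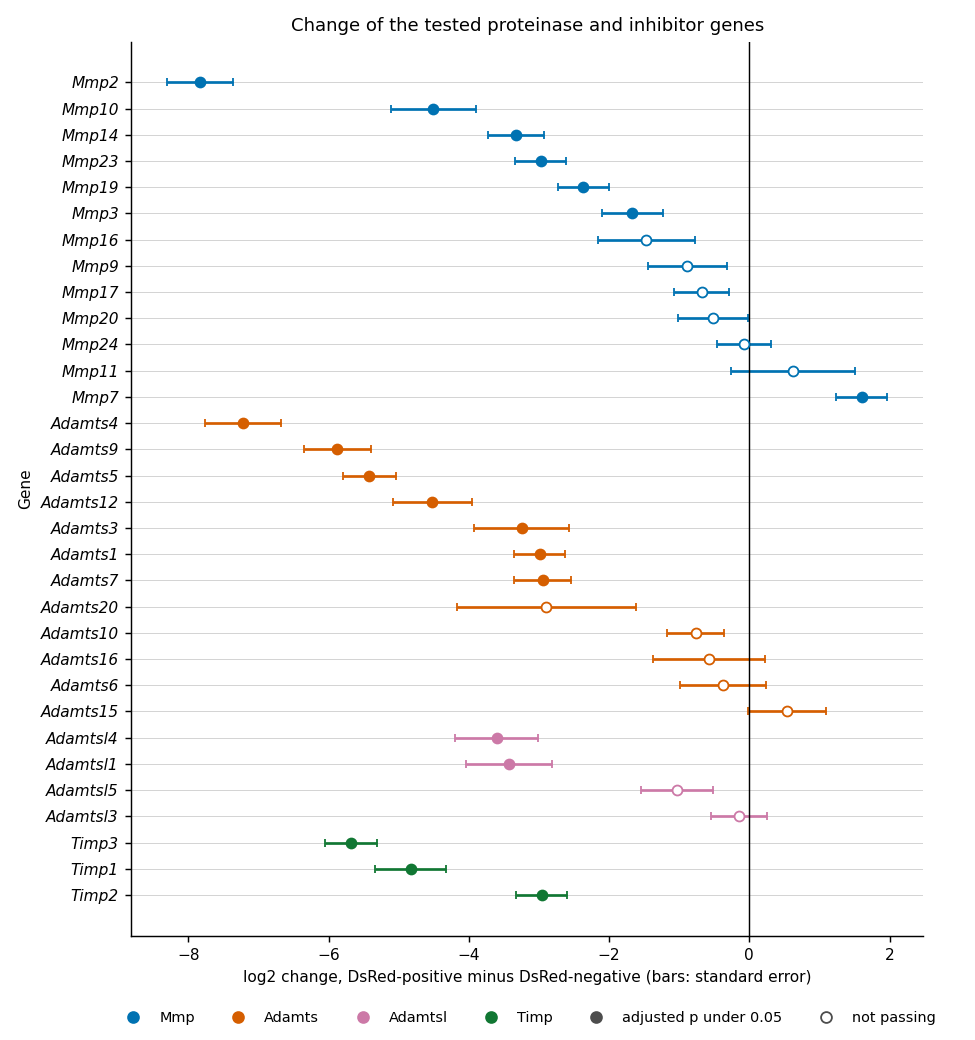
The log2 change (DsRed-positive minus DsRed-negative, horizontal axis) of the 32 tested genes by family, with the standard error of the limma fit over 3 arrays a group as bars; filled points passed an adjusted p of 0.05. The points of Mmp2 at -7.83 and Adamts4 at -7.23 lie farthest to the left, and Mmp7 at 1.60 is the filled point to the right of zero.

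Some features of the arrays bear on these values. The labelled epithelium was present in the DsRed-positive group: all 12 urothelial markers were higher there, and their summed deposited signal was 354040 to 562936 per array against 22496.3 to 43502.8 in DsRed-negative arrays (without both arrays numbered 1, 10 were called). In the DsRed-negative group the markers went against the label of an epithelial cell. Urothelial genes were lower there, and many markers of other cells were higher than in DsRed-positive cells. Among fibroblast genes 9 of 11 were lower in DsRed-positive cells and none higher, with a summed signal of 610546 to 1468350 in DsRed-negative and 23796.3 to 31100.0 in DsRed-positive arrays. Lower calls were made for 6 of 8 tested smooth muscle and mural cell genes (1 was higher), 5 of 6 endothelial, 3 of 6 macrophage, 3 of 5 mast cell and 1 of 3 neutrophil genes, and for 0 of 4 nerve and Schwann cell genes. Over all tested genes 11.3% were called lower and 9.21% higher. Without both arrays numbered 1 the lower calls numbered 9 for fibroblast, 6 for smooth muscle, 3 for endothelial, 1 for macrophage, 3 for mast cell and 0 for neutrophil genes, and the higher smooth muscle call was lost in every fit without 1 array. The neutrophil call was also lost without DsRed-negative 1 or any 1 DsRed-positive array, and macrophage calls fell to 2 without DsRed-negative 1 or 5 or DsRed-positive 1 or 5. The summed signal was 134641 to 226039 in DsRed-negative against 44042.6 to 53984.6 in DsRed-positive arrays for smooth muscle, 12239.1 to 16416.1 against 1866.79 to 2426.46 for endothelium, and 16931.6 to 18910.0 against 4748.42 to 7383.99 for macrophages. For mast cells it was 21479.2 to 32871.5 against 417.74 to 598.68, for neutrophils 992.49 to 2511.86 against 259.53 to 400.0, and for nerve 1333.95 to 2432.66 against 603.8 to 852.5. Most of the smooth muscle sum in DsRed-positive arrays came from Rgs5, the gene of that list called higher. It gave 45141.9, 41325.2 and 50648.2 in DsRed-positive arrays 1, 2 and 5, against 23559.1, 11231.1 and 24132 in DsRed-negative ones. Fap of the fibroblast list, Cnn1, Tie1, Itgam, Aif1, S100a9, Elane and the mast cell genes Cpa3, Hdc and Fcer1a were at or below the control level in all DsRed-positive arrays, and Aif1, S100a9, Elane and Mcpt4 were so in all DsRed-negative arrays, while no urothelial gene was so in either group. In these bulk samples fewer cells of a type and less RNA per cell cannot be told apart, and the part of these cells in the results was not tested. Technical measures also ran with the groups. The hybridization controls averaged 36820.7, 132252 and 85523 in deposited intensity on DsRed-negative arrays 1, 2 and 5 and 14338.6, 34542.9 and 36240.2 on DsRed-positive ones, and the array medians before normalization were 8.29 to 8.48 against 7.74 to 7.94 on the log2 scale. Neither overlapped between the groups, and their part in the results was not tested. The arrays numbered 1 stood apart in both groups and went against the label male: Xist, the X inactivation transcript, read 14.73 and 15.31 on the log2 scale there and 7.10 to 8.34 in the others, while the Y-linked Eif2s3y read 5.44 and 6.32 against 11.78 to 12.93. Without both arrays numbered 1, 13 members were lower and 0 higher at an adjusted p of 0.05 by limma, and leaving out both arrays numbered 2 or both numbered 5 gave 19 and 16 lower and again 0 higher. In these 3 fits Mmp7 had a positive change with an adjusted p of 0.0972, 0.103 and 0.113. Signal is given below as log2 of the normalized intensity, and the control level is the 95th percentile of 27 bacterial control probe sets, which was 7.41 to 7.56 in DsRed-positive and 7.69 to 8.03 in DsRed-negative arrays.

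Promoters of 27 of the 42 members were found in the RefSeq table for GRCm38.p6. The windows span 250 bases before to 50 after a gene's start. Of the 27 members, 9 are Mmp genes of a cluster on chromosome 9. The AP-1 motif TGANTCA, searched on both strands, was in 8 of these 9 and in 0 of the other 18, against 7.81% of all windows and 8.97% of all genes in the table. TATAAA was found on either strand in 9 of 9 and in 2 of 18 (13.6% of windows, 15.7% of genes), and GGGCGG in 0 of 9 and 16 of 18 (35.7% of windows, 38.2% of genes). TGANTCA reads the same on both strands, overlapping matches were counted at each position, and a gene with several windows was counted if any held the motif. Adamts1 and Adamtsl2 held both TATAAA and GGGCGG, and Adamts12 and Timp4 held no motif searched. A match is a description of letters and not a site of binding. The windows of 4 called members are shown from 130 bases before the start, because Mmp7 was higher in DsRed-positive cells while Mmp10 and Mmp3 were lower although a window of each holds TGAGTCA and TATAAA, and because Mmp14 is a lower member outside the cluster with GGGCGG. Capitals mark these motifs, which do not overlap in the windows shown. All windows are on the plus strand of GRCm38.p6, and the positions are chr9:7691960-7692139 for Mmp7, chr9:7502212-7502391 for Mmp10, chr9:7445692-7445871 for Mmp3 and chr14:54431468-54431647 for Mmp14.
Mmp7: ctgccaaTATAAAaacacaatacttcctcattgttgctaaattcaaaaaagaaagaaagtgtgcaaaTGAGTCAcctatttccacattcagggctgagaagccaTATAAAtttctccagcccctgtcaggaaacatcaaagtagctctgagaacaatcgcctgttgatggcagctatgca
Mmp10: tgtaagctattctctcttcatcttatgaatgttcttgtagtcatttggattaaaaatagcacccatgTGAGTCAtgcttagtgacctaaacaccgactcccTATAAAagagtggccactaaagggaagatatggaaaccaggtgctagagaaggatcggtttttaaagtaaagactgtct
Mmp3: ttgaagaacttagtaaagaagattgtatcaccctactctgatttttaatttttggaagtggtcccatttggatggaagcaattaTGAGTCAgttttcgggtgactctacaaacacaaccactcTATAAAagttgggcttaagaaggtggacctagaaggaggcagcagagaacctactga
Mmp14: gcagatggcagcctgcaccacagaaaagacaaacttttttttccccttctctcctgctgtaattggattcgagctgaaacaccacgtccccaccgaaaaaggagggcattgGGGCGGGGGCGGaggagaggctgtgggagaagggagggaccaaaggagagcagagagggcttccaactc
Mmp7 has 2 windows in the table, and the one not shown, chr9:7692091-7692390, held no motif searched. In the window shown for Mmp7 and in that of Mmp10 the first base of TGAGTCA lay 63 bases before the start, and in Mmp3 it lay 46 bases before it. TATAAA began 26, 29 and 7 bases before the start in the same order, with another copy 123 bases before that start of Mmp7. Mmp14 held 2 adjoining GGGCGG copies, 19 and 13 bases before its start, and neither of the other motifs.

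The gelatinase Mmp2, which cuts denatured collagen and basement membrane collagen, changed most. It read 16.77, 16.75 and 16.67 in DsRed-negative arrays 1, 2 and 5, and 7.99 to 9.71 in the DsRed-positive arrays, of which array 2 was lowest and array 5 highest. After normalization the DsRed-negative arrays had an SD of 0.05, and they lay far above every DsRed-positive array. The log2 change was -7.83 ± 0.47 (SE), a 227-fold lower signal (adjusted p = 0.000101, limma), and by size Mmp2 ranked 17 among the 14222 tested genes. In deposited signal this was 106828, 201448 and 154906 against 388.26, 165.01 and 777.31. The other probe set of Mmp2 changed by -7.37 ± 0.31. Mmp9, the other gelatinase, which neutrophils and macrophages are known to make, did not pass at -0.88 ± 0.57 (adjusted p = 0.331), and its groups overlapped. It read 8.74, 9.22 and 9.91 in DsRed-negative arrays, and DsRed-positive array 1 was below these at 7.27, while arrays 2 and 5 were above the lowest of them, the latter at 8.95. In deposited signal, before normalization, the values were 432.83, 667.03 and 976.26 against 85.95, 393.83 and 425.79 and did not overlap.

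Mmp14, the membrane-bound proteinase that activates the Mmp2 precursor together with Timp2, read 12.13, 13.25 and 13.15 in DsRed-negative and 9.61, 9.48 and 9.45 in DsRed-positive arrays. All DsRed-negative arrays were above all DsRed-positive ones, and all 6 were above the control level. The change was -3.33 ± 0.40, 10.1-fold lower (adjusted p = 0.00136, limma). Only 1 of its 3 probe sets passed, the brightest. The others gave -0.85 ± 0.32 and 0.29 ± 0.45, so the size for Mmp14 rests on 1 probe set, and averaging its probe sets gave -1.30, still called. The other membrane-type members Mmp16 (-1.47 ± 0.69), Mmp17 (-0.68 ± 0.39) and Mmp24 (-0.08 ± 0.39) did not pass, although Mmp17 read 8.84 to 9.83 against 8.28 to 8.82 without overlap.

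The secreted stromelysins, which cut many matrix proteins and activate other proteinases, were both lower. Mmp10 read 11.14, 12.41 and 10.47 in DsRed-negative arrays and 6.78, 6.08 and 7.64 in DsRed-positive ones, of which only array 5 exceeded its control level. Its change was -4.51 ± 0.61, 22.7-fold lower (adjusted p = 0.00234). Without both arrays numbered 1 its adjusted p was 0.0579 by limma with a change of -4.58. Mmp3 was dim, at 8.78, 8.36 and 8.28 against 6.56, 7.59 and 6.26. The groups did not overlap, but array 2 was the only DsRed-positive array above its control level. The change of -1.67 ± 0.43 (adjusted p = 0.0364) was lost in 5 of the 6 fits without 1 array, with an adjusted p of 0.134 without DsRed-positive 1, and with a replicate block (0.0597).

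Mmp7 was the member that rose, and by little. It read 8.44, 8.35 and 8.10 in DsRed-positive arrays, all above their control levels, and 7.12, 6.76 and 6.21 in DsRed-negative arrays, all below theirs. The fitted change was 1.60 ± 0.36 (adjusted p = 0.0220, limma). Against the control level this is at least 1.40-fold higher. The call was lost in 4 of the 6 fits without 1 array, namely without DsRed-negative 5 (0.0524) and without DsRed-positive 1 (0.0912), 2 (0.0783) or 5 (0.0589). It was also lost with the values as deposited, where the change was 1.14 (adjusted p = 0.0727). The value was above 0 in every alternative that tested the gene. Mmp7 is measured by 1 probe set.

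The rest of the Mmp cluster on chromosome 9 gave little signal. In map order of the annotation it holds Mmp13, Mmp12, Mmp1b, Mmp3, Mmp1a, Mmp10, Mmp8, Mmp27, Mmp20 and Mmp7, of which Mmp27 was not analysed here. The collagenases Mmp1a, Mmp1b and Mmp13 and the macrophage elastase Mmp12 were at or below the control level in all 6 arrays and were not tested. Mmp8, the collagenase of neutrophils, exceeded it in DsRed-positive 2 (9.09) and barely in DsRed-negative 5 (8.04), and was not tested. Mmp20, the enamel proteinase, was tested and did not pass (-0.52 ± 0.50). The groups overlapped for all genes of the cluster other than Mmp10, Mmp3 and Mmp7.

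**Figure D2:**
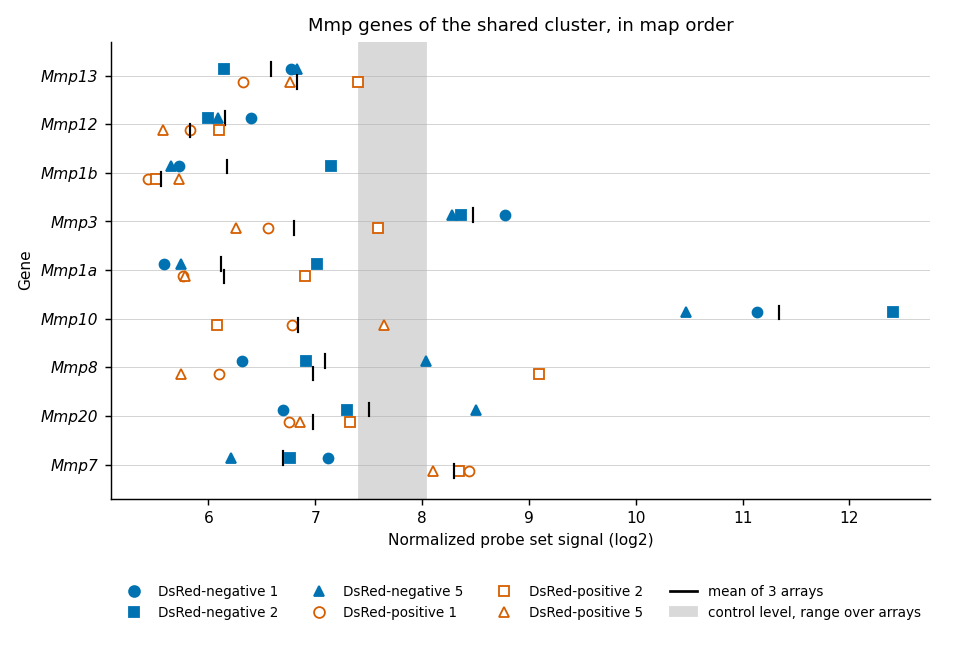
Normalized log2 signal in each array (horizontal axis) of 9 neighbouring Mmp genes of chromosome 9, filled blue for DsRed-negative and open orange for DsRed-positive arrays (circle, square and triangle for numbers 1, 2 and 5), with group means as black bars and the range of the control level in grey. Mmp10 and Mmp3 lie to the right of the grey band in DsRed-negative arrays and Mmp7 in DsRed-positive arrays, while most others lie to its left.

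Among the remaining Mmp genes, Mmp23, an unusual membrane-anchored member without the hemopexin domain, read 14.63, 14.21 and 14.84 in DsRed-negative and 11.20, 11.93 and 11.61 in DsRed-positive arrays. It kept clear signal in both groups. The change was -2.98 ± 0.36, 7.87-fold lower (adjusted p = 0.00146), and its other probe set gave -2.99. Mmp19, a secreted member, read 8.99, 8.41 and 8.27 against 6.54, 6.01 and 6.03, where all DsRed-positive arrays were below the control level. It was at least 2.10-fold lower (fitted -2.37 ± 0.36, adjusted p = 0.00414, limma). Mmp11, known as stromelysin 3, did not pass at 0.62 ± 0.88, and its DsRed-negative arrays differed widely (8.85, 6.16 and 5.82).

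Of the 7 Adamts genes called lower, Adamts4, Adamts9 and Adamts5, which cut proteoglycans, had the largest fitted changes. Adamts4, an aggrecanase, read 14.40, 14.31 and 14.18 in DsRed-negative and 7.90, 5.86 and 7.46 in DsRed-positive arrays. The DsRed-positive arrays lay around or below the control level, so the size of the change depends on dim values. The change was -7.23 ± 0.54, 150-fold lower (adjusted p = 0.000205), with rank 36 among all tested genes, and its other probe set gave -3.87 ± 0.76. Adamts9, a versican-cutting enzyme, read 15.18, 15.15 and 14.35 against 8.73, 9.87 and 8.45. Its groups stood far apart, with a change of -5.88 ± 0.48, 58.8-fold lower (adjusted p = 0.000286), while a second called probe set gave -2.59 and another that did not pass gave -0.76. Adamts5, the other main aggrecanase, read 13.35, 13.15 and 12.68 against 8.01, 7.75 and 7.14. The change was -5.42 ± 0.38 (adjusted p = 0.000166). Its other 2 tested probe sets were lower too, 1 by -2.88 and 1 at least 37.3-fold, since no DsRed-positive array exceeded the control level there.

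Adamts1, which also cuts versican and is induced by inflammation and hormones, stayed well above the control level in DsRed-positive cells. It read 12.31, 12.28 and 11.44 there and 15.06, 14.93 and 15.02 in DsRed-negative arrays. The change was -2.99 ± 0.36, 7.96-fold lower (adjusted p = 0.00148). Adamts20 varied most among the tested members, reading 9.89, 5.53 and 11.00 in DsRed-negative arrays, an SD of 2.89, against 5.63, 6.61 and 5.48. DsRed-negative 2 was as dim as the DsRed-positive arrays, and the change of -2.90 ± 1.28 did not pass (adjusted p = 0.168). Without that array it was -4.53 (adjusted p = 0.00231, limma). Adamts15 did not pass (0.54 ± 0.56), and Adamts8, at 6.49 to 7.77 against 5.77 to 6.05, was below the control level throughout and not tested.

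The other called Adamts genes act on collagen and glycoproteins. Adamts12, which cuts the cartilage glycoprotein Comp, read 11.75, 11.91 and 11.85 against 8.13, 7.80 and 6.02, a change of -4.52 ± 0.56 (adjusted p = 0.00166). Its relative Adamts7 read 10.96, 10.90 and 11.15 against 7.61, 8.79 and 7.77, a change of -2.95 ± 0.41 (adjusted p = 0.00257, and 0.0528 without both arrays numbered 1). In both genes the DsRed-negative arrays lay close together and the DsRed-positive arrays spread more widely. Adamts3, a procollagen N-proteinase, read 10.59, 9.01 and 11.71 against 6.63, 7.36 and 7.58. Its change of -3.25 ± 0.68 (adjusted p = 0.0158) was lost without DsRed-positive 1 (0.0745) and without DsRed-positive 2 (0.0504), and was 0.169 without both arrays numbered 1. The fibrillin-associated Adamts10 (-0.76 ± 0.41) and Adamts6 (-0.38 ± 0.61) did not pass, nor did Adamts16 (-0.57 ± 0.80). Adamts18 and Adamts19 did not exceed the control level in any array and were not tested.

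Of the ADAMTS-like genes, those with signal were lower in DsRed-positive cells or did not pass. Adamtsl4, which supports the fibrillin fibres that anchor the lens, read 11.65, 11.11 and 10.67 against 8.38, 7.97 and 6.28. DsRed-positive 5 was the lowest array and the only one below its control level. The change was -3.60 ± 0.59, 12.2-fold lower (adjusted p = 0.00567). Adamtsl1 was also lowest in DsRed-positive 5, with 11.36, 10.84 and 10.28 against 8.07, 8.08 and 6.04, and changed by -3.43 ± 0.62 (adjusted p = 0.00865, and 0.0788 without both arrays numbered 1), with all 3 probe sets lower. Adamtsl5 (-1.04 ± 0.51) and Adamtsl3 (-0.15 ± 0.39) did not pass. Adamtsl2, a regulator of microfibrils, was at or below the control level in all arrays.

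**Figure D3:**
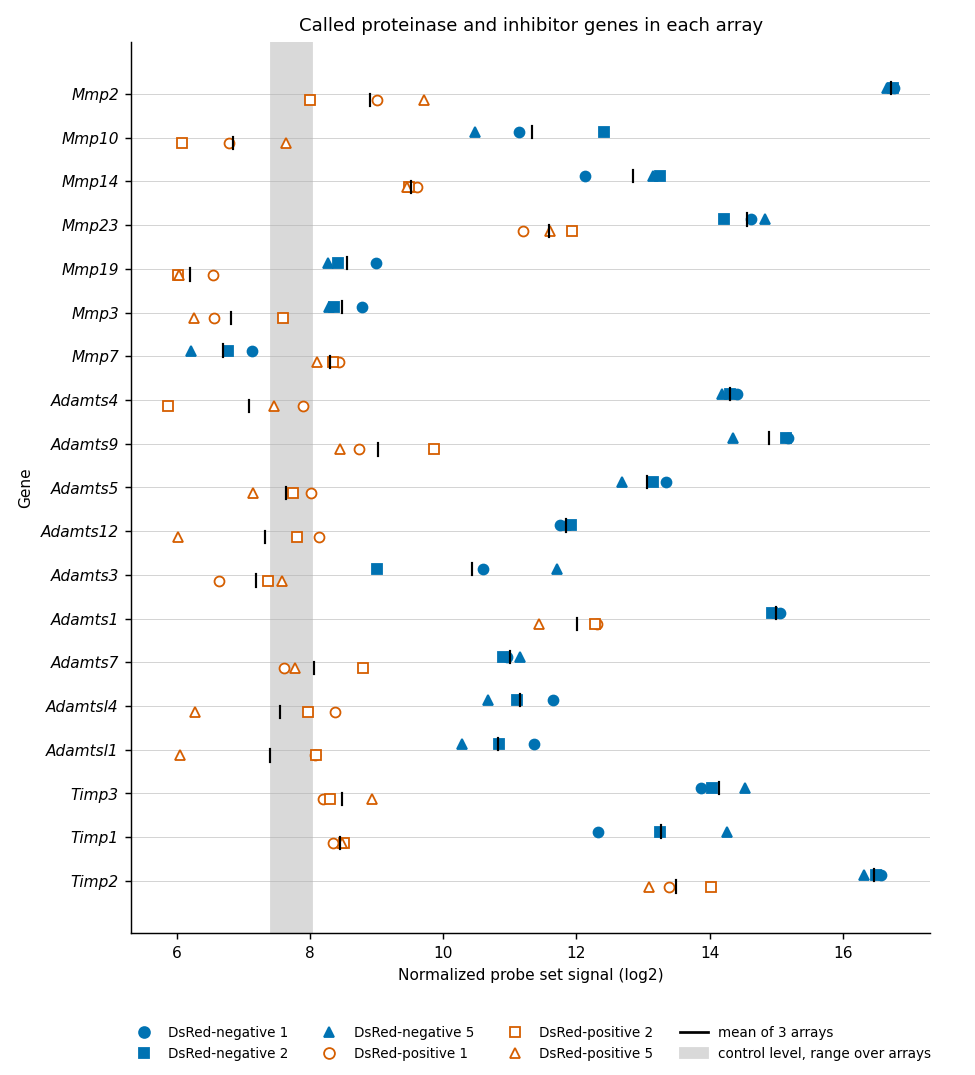
Normalized log2 signal in each array (horizontal axis) of the 19 called genes, in family order, filled blue for DsRed-negative and open orange for DsRed-positive arrays (circle, square and triangle for numbers 1, 2 and 5), with group means as black bars and the range of the control level in grey. The groups do not overlap for any of these genes, and many DsRed-positive points lie in or left of the grey band, whereas those of Timp2 (13.09 to 14.03), Adamts1 and Mmp23 lie well to its right.

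All 3 tested inhibitors were lower in DsRed-positive cells. Timp3, which stays bound to the matrix and also blocks ADAM and ADAMTS enzymes, read 13.87, 14.04 and 14.54 in DsRed-negative and 8.19, 8.30 and 8.92 in DsRed-positive arrays. The change was -5.68 ± 0.37, 51.1-fold lower (adjusted p = 0.000126), and all 4 of its probe sets fell, from -5.71 to -2.00. Timp1, a soluble inhibitor induced by growth factors and cytokines, read 12.32, 13.26 and 14.26 against 8.35, 8.52 and 8.48. The DsRed-positive arrays were nearly alike (SD 0.09) and the DsRed-negative ones more spread (SD 0.97), and the change was -4.83 ± 0.51 (adjusted p = 0.000797). Timp4 was not tested. Its brighter probe set did not exceed the control level in any array, and its other probe set exceeded it in DsRed-negative 2 alone (7.73 against 7.69).

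Timp2, which inhibits metalloproteinases and also joins Mmp14 in activating the Mmp2 precursor, was lower but remained bright. It read 16.57, 16.50 and 16.32 in DsRed-negative and 13.38, 14.03 and 13.09 in DsRed-positive arrays, or 8794.17 to 17497.3 in deposited signal in the latter. The change was -2.96 ± 0.36, 7.80-fold lower (adjusted p = 0.00155), and all 6 of its probe sets fell, from -5.00 to -2.96. All 3 genes of the activation complex, Mmp2, Mmp14 and Timp2, were lower, with changes of -7.83, -3.33 and -2.96. Within arrays, the log2 signal of Mmp2 minus that of Timp2 was 0.20, 0.25 and 0.35 in DsRed-negative and -4.39, -6.03 and -3.38 in DsRed-positive arrays. The zero point of such a difference has no meaning between probe sets, and its shift between the groups was -4.87. The size of such a shift depends on the probe sets taken, here the brightest of each gene. That of Timp2 changed least of its 6 (-2.96 against up to -5.00), and the other probe sets of Mmp14 gave -0.85 and 0.29. Of 3 such pairs, chosen after the values were seen, Mmp2 minus Mmp14 shifted by -4.50 and Timp3 minus Timp2 by -2.71. Each gave p = 0.1 by a two-sided exact permutation test, before and after adjustment over the 3, which is the smallest p that 3 arrays against 3 can give.

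**Figure D4:**
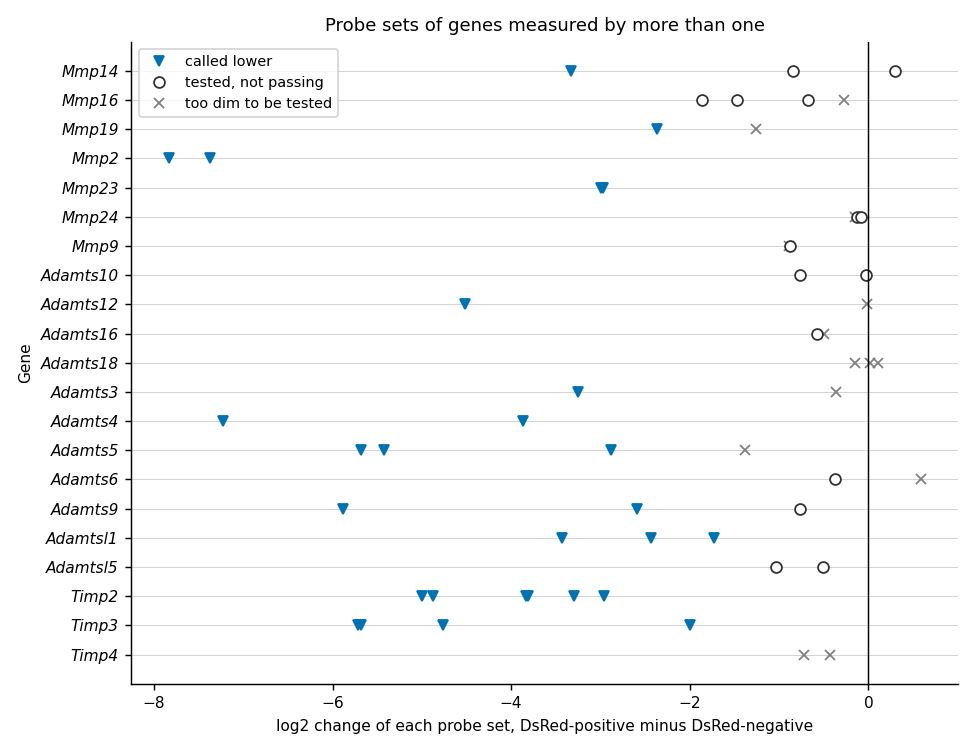
The log2 change (DsRed-positive minus DsRed-negative, horizontal axis) of every probe set of the 21 genes with more than 1, where blue triangles were called lower, open circles were tested and did not pass, and crosses were too dim to be tested. All 6 probe sets of Timp2 and all 4 of Timp3 are triangles, whereas 1 of 3 is for Mmp14 and 2 of 3 are for Adamts9.

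Where a gene had several probe sets, they seldom disagreed on direction but often on size. Of 56 tested member probe sets, 34 were lower, 1 was higher and 21 did not pass, against 8.62% and 8.63% of all 30175 tested probe sets called lower and higher. No member had probe sets called in both directions. Of the 9 called members with more than 1 tested probe set, 7 had all of them called lower, and the exceptions were Mmp14 and Adamts9. Among tested members the groups did not overlap for 20 of 32, the 19 called genes and Mmp17, while DsRed-positive arrays lay wholly below DsRed-negative ones for 21.4% of all tested genes and wholly above for 22% of them. By the control level and each gene's brightest probe set, 24 members had signal in all 3 DsRed-negative arrays and 14 in all 3 DsRed-positive arrays, 12 of them in all 6. Another 9 exceeded it in no array by that probe set, of which Timp4 did so by its other probe set in 1 array.

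Other genes of the same proteolytic system were read from lists written with earlier results of these data known. The partners were activators, receptors and inhibitors, together with cathepsins and serpins. Of 21 tested, 10 were lower, 2 higher and 9 did not pass, with a median change of -1.20. Among all tested genes, 11.3% were called lower and 9.21% higher. The 3 with the smallest p were the antiangiogenic serpin Serpinf1 (-6.42 ± 0.32), the collagen-cutting cathepsin Ctsk (-7.72 ± 0.46) and the proprotein convertase Pcsk5 (-6.20 ± 0.51). For Ctsk and Pcsk5, DsRed-positive 1 was the only DsRed-positive array above its control level, so the size of both changes depends on dim values. Reck, a membrane-anchored inhibitor of Mmp2, Mmp9 and Mmp14 that was named after its value was seen, read 13.46, 13.85 and 13.70 against 7.34, 9.89 and 5.74, a change of -6.01 ± 0.93 (adjusted p = 0.00443, and 0.0856 without both arrays numbered 1). The higher genes were maspin, Serpinb5 (3.79 ± 0.56), and the urokinase receptor Plaur (1.54 ± 0.41), whose call was lost in all 6 fits without 1 array with an adjusted p of up to 0.137. Urokinase itself, Plau, did not pass (-1.78 ± 0.71), nor did tissue plasminogen activator, Plat (0.25 ± 0.36). Without both arrays numbered 1 the partners had 6 lower and 1 higher, as they did without both numbered 5.

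The related ADAM family includes membrane proteinases that shed surface proteins, and also Adam22 and Adam23, which lack a working proteinase site, and Adamdec1, which is secreted. Of 12 tested, 4 were lower, 3 higher and 5 did not pass, and the median change was -1.09. The shares over all tested genes were 11.3% lower and 9.21% higher. Adam23 (-6.23 ± 0.59), Adam12 (-3.20 ± 0.36), Adam19 (-4.58 ± 0.52) and Adamdec1 (-3.39 ± 0.48) were lower. Adam10, the sheddase of Notch and E-cadherin, was higher at 14.91, 14.73 and 15.08 in DsRed-positive against 13.45, 12.93 and 13.07 in DsRed-negative arrays, a change of 1.76 ± 0.33 (adjusted p = 0.00983). The Adam10 call was lost without both arrays of any 1 number, with an adjusted p of 0.0711 without both numbered 1. Adam28 (4.63 ± 0.84) and Adam22 (3.91 ± 0.77) were also higher, the latter with an adjusted p of 0.0623 without DsRed-positive 1, and without both arrays numbered 2 or both numbered 5 only 1 ADAM gene was called higher. Adam17, the tumour necrosis factor converting enzyme, did not pass (0.34 ± 0.45). The procollagen C-proteinase Bmp1 (-3.34 ± 0.39) and its enhancer Pcolce (-6.31 ± 0.41) were lower, and they were 2 of the 3 tested genes of their list.

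Of 20 tested matrix substrates and partners, 14 were lower, 2 higher and 4 did not pass, with a median change of -4.98. Calls over all tested genes were 11.3% lower and 9.21% higher. Thrombospondin 2, Thbs2 (-6.87 ± 0.34), the basement membrane collagen chain Col4a2 (-6.05 ± 0.31) and the Adamts1 cofactor fibulin 1, Fbln1 (-6.30 ± 0.37), had the smallest p. Versican, Vcan, a substrate of Adamts1, Adamts4, Adamts5 and Adamts9, was named after its value was seen and changed by -8.10 ± 0.79. Only DsRed-positive 1 (8.52) exceeded its control level there, so the size of this change depends on dim values. The higher ones were E-cadherin, Cdh1 (4.73 ± 0.41), a surface protein that Mmp3 and Mmp7 are known to cut, and Ncan, at least 1.55-fold (adjusted p = 0.0475, limma). The Ncan call was lost in 17 of the 19 alternatives that tested it. Of these, 5 were fits without 1 array, with an adjusted p of up to 0.149 by limma, without DsRed-positive 5. Elastin, Eln, was lower (-3.02 ± 0.31), as was Fbn2, at least 15.8-fold, whereas Thbs1 (0.57 ± 0.38) and Ltbp1 (-0.26 ± 0.39) did not pass. Without both arrays numbered 1, 13 of the list were lower and 1 higher.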

How the data were processed

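RNA from 6 samples was measured on single-channel Affymetrix arrays. The deposited values are probe set intensity on a linear scale. The submitters' processing notes name GCOS, with settings not given in the sources used here. After trimming 2% at both ends the mean was 1500.01 on every array, so the deposited intensity had been scaled.

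An offset of 39.84, the 20th percentile, was added, log2 taken, and arrays quantile normalized because their medians spanned 0.74. The offset compresses ratios of dim genes. Dim probe sets, with a mean at or below 7.18 (the 33rd percentile), were left out, and the other 30175 were fitted with limma 3.58.1 in R 4.3.3 (lmFit, eBayes, two-sided, no replicate block) and Benjamini-Hochberg adjustment over all of them. A gene was represented by its brightest single-gene probe set. Symbols came from the platform annotation, 34741 of 34945 single-gene probe sets updated by gene ID. Errors are SE of the fit unless SD is named. Where all arrays of a group lay at or below the control level (27 Bacillus subtilis control probe sets, 95th percentile), the fold is a bound against it. The code was tested on simulated data.

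Members and lists were chosen with earlier results of these data known. All members are accounted for. Of each list of other genes of the proteolytic system, up to 3 called genes with the smallest p are named. Every other gene named from those lists was chosen after its values were seen. Cell type markers were named where they lay at or below the control level in all arrays of a group, and Rgs5 after its values were seen. The alternatives were 2 scalings, a replicate block, 9 fits without 1 array or without both arrays of a number, 2 offsets, no filter or one at the 50th percentile, trend and robust estimation, array weights, means of probe sets, and unique-suffix probe sets alone. No sample was dropped or imputed. The number of arrays limits the precision.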

Additional observations from a re-analysis of the deposited data

How the results depend on the processing

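The number of members called lower was 18 and stayed between 16 and 18 in the alternatives of scaling, replicate block, offset, filter, spread estimate and probe set choice; without 1 array, or without both arrays of a number, it was 13 to 19. The number called higher was 1, Mmp7, and was 0 with the values as deposited, with an offset at the 50th percentile and with a filter at the 50th percentile, where Mmp7 was not tested; without 1 array or both of a number it was 0 to 1. With the replicate number as a block, 17 members were lower and 1 higher, and Mmp3 was the call lost. Same-numbered arrays correlated at 0.04 to 0.15 in their deviations from the group means, and all 6 arrays correlated best with their own number. Both arrays numbered 1 also read high for Xist and low for Eif2s3y, unlike those numbered 2 and 5 in either group. These are hints from the data alone and do not establish pairing. Of the 19 called members, 16 kept their call in every fit without 1 array and 13 in every alternative, of 20, that tested them. No called member changed direction, while 14 values of members not called changed sign without a call on either side. Adamts20 was called only without DsRed-negative 2 or without both arrays numbered 2. The signal of dim members limits what can be read: by their brightest probe set, 9 of 42 exceeded the control level in no array.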
